A study of Mus musculus with 4 samples.

Results

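Of the 23420 gene symbols in the table, 43 are cell cycle and DNA replication genes chosen by name for their place in the cycle. A member also needed a normalised read count of at least 10 in 2 or more of the 4 libraries, and all 43 met that minimum, as did 12463 symbols in all. By role, 14 members are grouped as S phase, with origin licensing included, 21 as mitosis and 8 as regulators of G1 and cycle entry. The lowest value of any member in any library was 159, for the G1 cyclin gene Ccne1, so none lay close to the minimum.

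The RNA came from myeloid cells that had entered orthotopic cutaneous squamous cell carcinomas (cSCC) of FVB/N mice. Flow cytometry selected cells carrying CD11b, an integrin of myeloid cells, together with CD200R1, which binds CD200. In 2 libraries the tumours were EpiKO (K14Cre;CD200fl/fl), so that the keratin 14 promoter drove Cre and removed Cd200 from the epidermis, not from the sorted cells. In the other 2 libraries the tumours were WT, with CD200 present. The labels give no age, sex, time point or treatment, and do not say whether a library is 1 mouse or a pool. The p-values therefore measure only the spread between these libraries, which may be technical. The question put to the members is whether cell cycle genes of the sorted cells differ with CD200 on the tumour.

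A dividing cell passes through G1, S phase, G2 and mitosis. In G1, D-type and then E-type cyclins activate kinases that inactivate the retinoblastoma protein and free E2F factors, while inhibitors such as p21 and p27 hold those kinases back. Origins are licensed in G1 by Cdc6, Cdt1 and the MCM helicase, and S phase needs nucleotide synthesis and the clamp PCNA. Mitotic genes are transcribed later, in G2, largely under the MuvB complex with B-Myb and FoxM1, which reads a short element called CHR. Many mature tissue macrophages divide little, whereas monocyte-derived cells and some resident macrophages can divide locally.

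Promoters of the members differed by class in CHR and E2F letters. The windows were RefSeq's on GRCm38.p6, 250 bases before to 50 after a start site, and covered 34 of the 43 members. The CHR letters TTTGAA were in 13 of 18 windows of mitosis members (72.2%) and in 1 of 13 windows of S phase members (7.69%), against 17.9% of all 32851 windows. CCAAT boxes, the letters CCAAT, were in 16 of 18 mitosis windows (88.9%) and in 9 of 13 S phase windows (69.2%), against 37.4% of all. A CCAAT box and CHR letters stood together in the same counts as CHR letters, 72.2% and 7.69%, against 6.95% of all windows. E2F letters, taken as TTNNCGC with C or G at each N, were in 4 of 18 mitosis windows (22.2%) and in 9 of 13 S phase windows (69.2%), against 9.57% of all. All motifs were read on both strands, and a match is a description of letters, not a binding site. The 7 windows of G1 regulators, from 5 genes, held no CHR and no E2F letters. A CCAAT box was in 2 of these 7, against 37.4% of all windows.

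Windows of 3 members, 1 of S phase and 2 of mitosis, are shown as examples, of which Mcm6 and Ccnb2 carry the letters common in their class and Ccnb1 does not carry CHR letters. Each runs 5′ to 3′ over the 250 bases before the start site, and capitals mark CCAAT, CHR and E2F letters on either strand.
Mcm6, chr1:128359706-128359955, minus strand: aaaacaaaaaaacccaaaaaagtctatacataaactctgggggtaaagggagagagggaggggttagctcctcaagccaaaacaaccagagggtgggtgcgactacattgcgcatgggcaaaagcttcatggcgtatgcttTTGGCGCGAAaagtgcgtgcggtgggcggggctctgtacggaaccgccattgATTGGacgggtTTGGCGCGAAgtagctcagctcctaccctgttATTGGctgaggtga
Ccnb2, chr9:70421555-70421804, minus strand: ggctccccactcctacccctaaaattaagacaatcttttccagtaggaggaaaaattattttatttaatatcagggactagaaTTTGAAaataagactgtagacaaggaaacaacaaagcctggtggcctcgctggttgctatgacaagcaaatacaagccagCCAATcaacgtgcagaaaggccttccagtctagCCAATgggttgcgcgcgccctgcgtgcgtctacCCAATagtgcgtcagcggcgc
Ccnb1, chr13:100786487-100786736, minus strand: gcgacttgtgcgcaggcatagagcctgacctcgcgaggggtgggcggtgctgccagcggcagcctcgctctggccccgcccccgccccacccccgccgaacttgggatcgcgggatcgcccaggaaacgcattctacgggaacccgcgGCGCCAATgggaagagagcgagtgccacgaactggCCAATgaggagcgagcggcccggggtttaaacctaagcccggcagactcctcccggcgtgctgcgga
In Mcm6 the capitals hold 2 E2F blocks, in each of which matches on opposite strands overlap, and 2 CCAAT boxes on the minus strand of the gene. In Ccnb2 they hold 3 CCAAT boxes and 1 CHR match, and a further CHR match begins just past the start site, outside the stretch shown. In Ccnb1 they hold 2 CCAAT boxes, of which 1 overlaps an E2F match, and no CHR letters. Of the other windows chosen by the same rule, Cdt1 has 2 E2F matches past the start site, and Tk1 and Birc5 have none of the letters.

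Depth ranged between 17398176 and 19318481 reads assigned to genes in EpiKO libraries and between 15884132 and 21244158 in WT libraries. Myeloid genes were abundant in every library. Their 12 markers summed to between 427756 and 497774 in EpiKO and between 340475 and 394168 in WT, with Itgam, the gene of CD11b, at 40692 and 30075 in EpiKO and 26151 and 26738 in WT. Cd200r1, the other gene of the sort, was at 1101 and 612 in EpiKO and 318 and 293 in WT (limma adjusted p = 0.115). Of 14 T and NK cell markers 7, among them Cd3d, Cd3e and Cd3g, had at most 3 reads in every library. Of 20 keratinocyte markers 10 were tested and none was called; the list summed to 9649 and 8755 in EpiKO and to 10553 and 5343 in WT. Of 14 fibroblast markers 12 were tested and 1 was called, Col6a3, at 2888 and 3188 in EpiKO and 1174 and 922 in WT (log2 fold change 1.54, limma adjusted p = 0.0371). The list summed to 26254 and 43843 in EpiKO and to 48133 and 33032 in WT. WT replicate 1 stood apart in the basal keratin genes, which were chosen after their values were seen. Krt14 was at 8.61 and 18.9 in EpiKO and at 1907 and 28.6 in WT, and Krt5 at 7.54 and 7.56 in EpiKO and at 736 and 5.04 in WT. The 11 neutrophil and precursor markers found summed to 798 and 1630 in EpiKO and to 1380 and 2845 in WT, and none was called. S100a9, 1 of these 11 and with a lower mean than Csf3r, was highest in WT replicate 2. It was at 38.8 and 117 in EpiKO and 64.9 and 737 in WT.

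None of the 43 members was called between EpiKO and WT, where limma called 0.947% of the 12463 tested genes at a Benjamini-Hochberg adjusted p under 0.05. The smallest adjusted p among them was 0.0602, for Cdt1. At an unadjusted p under 0.05 there were 5 members, 4 lower and 1 higher in EpiKO. Over all tested genes that share was 15.6%, made up of 7.57% lower and 8.07% higher. These were Cdt1, Mcm6, Tk1 and Stmn1 on the lower side and Ccnd2 on the higher side. By edgeR none of the 43 was called (0.963% of all tested genes), and by DESeq2 2 were, Cdt1 lower and Ccnd2 higher. DESeq2 called 6.85% of all tested genes, 3.12% lower and 3.73% higher. In bulk RNA, fewer cells in cycle and less RNA of these genes per cell cannot be told apart.

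As a class, the S phase members overlapped between the genotypes. Over the 14, normalised read counts summed to 22770 and 21212 in EpiKO libraries and to 21122 and 27875 in WT libraries. Both EpiKO sums lay between the WT sums, and the WT replicates differed by 1.32 times. The median log2 fold change of the 14 was -0.058, with 4 above 0 and 10 below, beside a median of -0.0021 over all tested genes, of which 50.3% were below 0. Of the 53 other S phase genes in a wider list, all tested, none was called and 39 had a log2 fold change below 0 (median -0.10). Among their smallest p-values were those of Gins3, a subunit of the replicative helicase, at -0.77 on the log2 scale (limma adjusted p = 0.239), and Orc6, of the origin recognition complex, at -0.29.

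Cdt1, which loads the MCM helicase onto origins, was the S phase member with the smallest p. It stood at 714 and 861 in EpiKO and at 1469 and 1431 in WT. The groups did not overlap, and the WT replicates nearly coincided. The log2 fold change was -0.89 (SE 0.130, 95% interval -1.22 to -0.55), at an adjusted p of 0.0602 by limma, 0.0606 by edgeR and 0.000194 by DESeq2. With any 1 library left out it stayed between -1.02 and -0.75, at an adjusted p of 0.0985 to 0.260 by limma. The gene lies at chr8:122568015-122573554 of mm10 (plus strand), and no other gene of GENCODE M21 overlaps its exons.

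**Figure D1:**
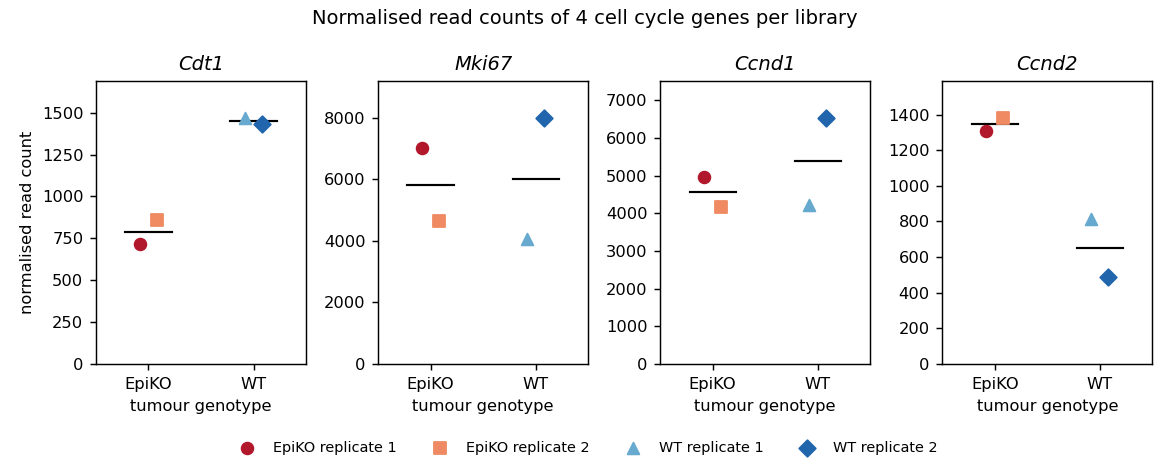
Normalised read counts (vertical axes, linear, starting at 0) of Cdt1, Mki67, Ccnd1 and Ccnd2 in the 2 EpiKO and 2 WT libraries, with points for libraries and lines for group means. Cdt1 is at 714 and 861 in EpiKO and 1469 and 1431 in WT, whereas the Mki67 points of the groups interleave.

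A gap of that size was not seen in Cdc6, Gins2 or Pcna. Cdc6, which recruits Cdt1 and the helicase to origins, was at 281 and 279 in EpiKO and 247 and 299 in WT. Gins2, a subunit of the GINS complex that joins the helicase when origins fire, was at 338 and 413 in EpiKO and 366 and 414 in WT. In both genes the groups overlapped, and their log2 fold changes were 0.042 (SE 0.161) and -0.059 (SE 0.160). Pcna, the sliding clamp of the polymerases, was at 3050 and 2962 in EpiKO and 3215 and 3470 in WT, without overlap, and the log2 fold change was -0.15 (SE 0.108; limma adjusted p = 0.594).

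The 6 MCM subunits form 1 ring that unwinds DNA, and 5 of them kept both EpiKO values between the WT values. Mcm2 was at 2098 and 2161 in EpiKO and 1591 and 2308 in WT, and Mcm5 at 2220 and 2004 in EpiKO and 1710 and 2681 in WT. Mcm3, Mcm4 and Mcm7 had the same arrangement, and the log2 fold changes of these 5 lay between -0.058 and 0.15. Mcm6 differed in its order, at 2710 and 2551 in EpiKO and 3223 and 4168 in WT. Its log2 fold change was -0.48 (SE 0.156, 95% interval -0.87 to -0.084) and limma's adjusted p was 0.239. Whether Mcm6 differs from the other subunits was not tested.

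Of the 4 genes of nucleotide supply, Tk1 alone had groups that did not overlap. Tk1, thymidine kinase of the salvage pathway, was at 707 and 677 in EpiKO and 843 and 1249 in WT, and the log2 fold change was -0.57 (SE 0.206; limma adjusted p = 0.286). Its exons overlap those of Afmid on the other strand, and strand use in counting is not given in the sources used here. Rrm1 and Rrm2 encode the subunits of ribonucleotide reductase. Rrm2 was at 1243 and 888 in EpiKO and 921 and 1395 in WT, and Rrm1 at 2688 and 2173 in EpiKO and 2172 and 2914 in WT. Tyms, thymidylate synthase, was at 505 and 476 in EpiKO and 446 and 638 in WT. For Rrm2, Rrm1 and Tyms the groups overlapped, and the log2 fold changes were -0.11, -0.058 and -0.12 in that order.

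Mitosis members varied more between replicates than between genotypes. The 21 summed to 30643 and 22255 in EpiKO libraries and to 21429 and 36322 in WT libraries. The WT replicates thus differed by 1.70 times and the EpiKO replicates by 1.38 times, while the mean EpiKO sum was 0.916 of the mean WT sum. No member was called, 3 log2 fold changes were above 0 and 18 below, and the median was -0.092. Of 53 other mitosis genes, all tested, none was called, 41 were below 0 and the median was -0.099. Their 3 smallest p-values belonged to Gas2l3, a cytoskeletal linker of the dividing cell, at -0.59 on the log2 scale (adjusted p = 0.127 by limma, 0.0334 by DESeq2), the centromeric histone Cenpa at -0.31 and separase, Espl1, at -0.40.

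Mki67, which encodes the proliferation antigen Ki-67, was at 7004 and 4648 in EpiKO and 4057 and 7990 in WT. Means were 5826 ± 1666 in EpiKO and 6023 ± 2781 in WT (SD, n = 2 each), and the log2 fold change was 0.0031 (SE 0.378, 95% interval -0.97 to 0.98). That interval spans nearly a doubling in either direction. Top2a, the topoisomerase that untangles sister chromatids, followed the same order, at 5095 and 3574 in EpiKO and 3415 and 6056 in WT.

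Kinases and cyclins of mitosis repeated that picture. Cdk1, the mitotic kinase, was at 1352 and 1124 in EpiKO and 1172 and 1516 in WT, with a log2 fold change of -0.11 (SE 0.173). Its partners Ccnb1 and Ccnb2, the B-type cyclins, had log2 fold changes of -0.22 (SE 0.268; limma adjusted p = 0.776) and -0.25 (SE 0.243; limma adjusted p = 0.707). Ccnb1 was at 602 and 427 in EpiKO and 481 and 725 in WT, and Ccnb2 at 1021 and 736 in EpiKO and 864 and 1234 in WT. Ccna2, cyclin A2, which acts in S phase and again before mitosis, was at 2024 and 1481 in EpiKO and 1487 and 2417 in WT. The groups overlapped in all 4 genes. Plk1, a kinase of mitotic entry and spindle assembly, was at 670 and 582 in EpiKO and 420 and 819 in WT. Aurka and Aurkb, kinases of spindle poles and of centromeres, had log2 fold changes of -0.018 and 0.079. Bub1, of the spindle checkpoint, was at 769 and 604 in EpiKO and 545 and 957 in WT.

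Spindle and exit genes overlapped between the groups as well. These were Tpx2, Kif11, Prc1, Nusap1 and Hmmr, which organise spindle microtubules, Cenpe and Cenpf at the kinetochore, and Cdc20 and Ube2c of the ubiquitin ligase that ends mitosis. Their log2 fold changes lay between -0.18 for Prc1 and -0.036 for Kif11. Cenpf had the widest gap between WT replicates, 2.09 times, at 776 and 538 in EpiKO and 469 and 983 in WT. Birc5, which encodes survivin of the chromosomal passenger complex, was at 780 and 689 in EpiKO and 734 and 1107 in WT (log2 fold change -0.30, SE 0.220, adjusted p = 0.613 by limma).

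Stmn1, which encodes the microtubule-destabilising protein stathmin, was the only one of the 21 mitosis members whose groups did not overlap. It stood at 838 and 784 in EpiKO and 955 and 1273 in WT, with a log2 fold change of -0.44 (SE 0.166, 95% interval -0.86 to -0.023). The adjusted p was 0.295 by limma, 0.265 by edgeR and 0.292 by DESeq2.

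**Figure D2:**
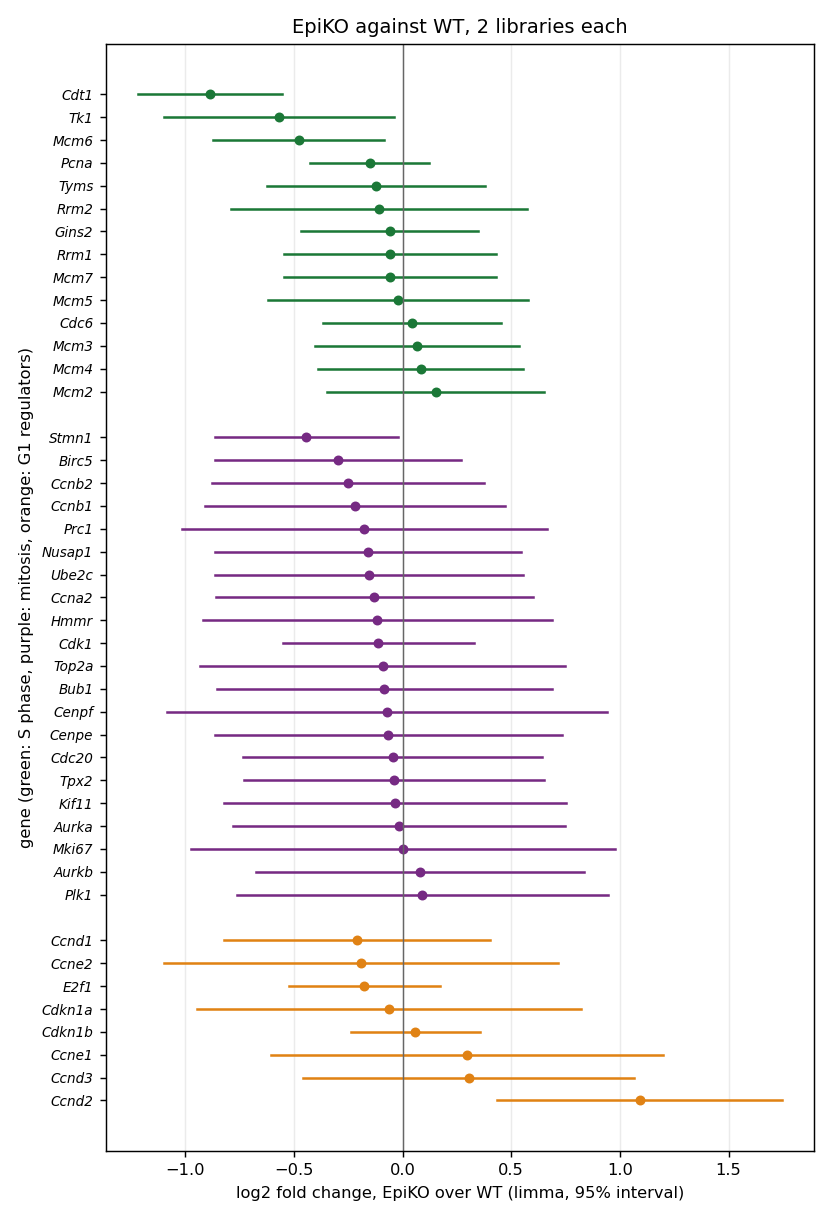
Log2 fold change of each of the 43 genes, EpiKO over WT (horizontal axis), with limma's 95% interval, ordered within S phase, mitosis and G1 regulators. The intervals of Cdt1, Mcm6, Tk1, Stmn1 and Ccnd2 exclude 0 before adjustment, and none of the 43 genes passed after adjustment.

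The order of the libraries was shared across the members. WT replicate 2 was the highest library for 37 of 43 members, against 22.4% of all tested genes, and for all 21 mitosis members and 13 of 14 S phase members. WT replicate 2 was above WT replicate 1, and EpiKO replicate 1 above EpiKO replicate 2, for 37 members, including all 21 of mitosis, against 26.5% of all tested genes. The full order of WT replicate 2, EpiKO replicate 1, EpiKO replicate 2 and WT replicate 1 was found in 18 members, 7 of S phase and 11 of mitosis, against 4.24% of all tested genes. These counts describe 4 libraries, since genes of 1 library are not independent.

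**Figure D3:**
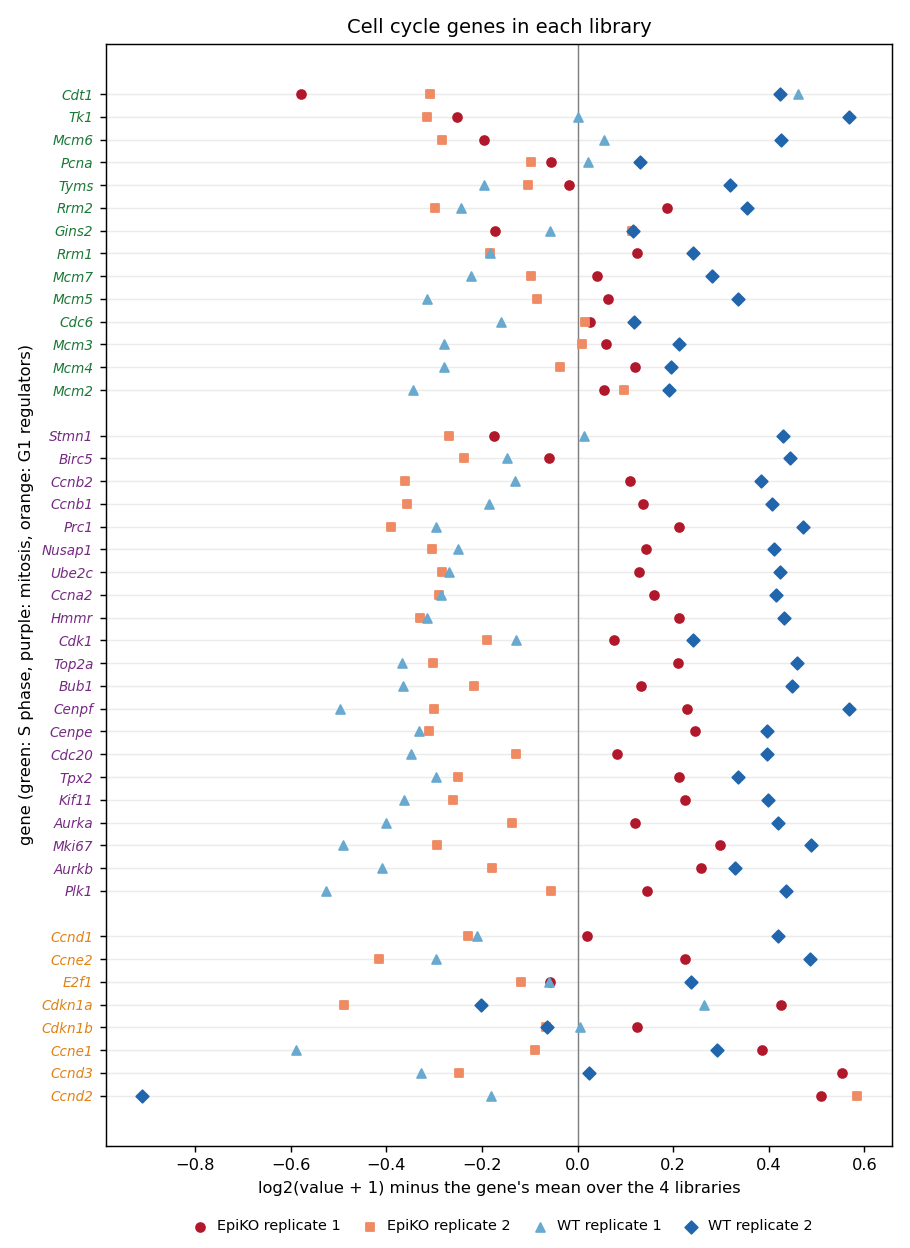
For each of the 43 genes (rows), log2(value + 1) in each library minus the gene's mean over the 4 libraries (horizontal axis). WT replicate 2 lies farthest to the right for all 21 mitosis genes, with EpiKO replicate 1 next for all of them but Stmn1, while Cdt1 and Ccnd2 separate the genotypes in opposite directions.

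The size of these shifts was larger for mitosis than for S phase members. The median gap between replicates on the log2 scale was 0.45 within EpiKO and 0.74 within WT for mitosis members, and 0.11 within EpiKO and 0.48 within WT for S phase members. Over all tested genes the same medians were 0.19 within EpiKO and 0.18 within WT. The summed mitosis values were 1.35 and 1.05 times the summed S phase values in the EpiKO libraries, and 1.01 and 1.30 times in the WT libraries. In the wider lists that ratio moved less, at 1.29 and 1.22 in EpiKO and 1.26 and 1.33 in WT. WT replicate 1, where the mitosis sum was lowest, is the library with high Krt14 and Krt5, chosen from 20 keratinocyte markers after their values were seen. The whole keratinocyte list differed less, at 10553 there against 9649 and 8755 in EpiKO and 5343 in WT replicate 2. WT replicate 2, where the mitosis sum was highest, is the library with high S100a9, 1 of the 11 neutrophil and precursor markers found. Its neutrophil list summed to 2845, against 798 and 1630 in EpiKO and 1380 in WT replicate 1. The part of these genes in the result was not tested.

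**Figure D4:**
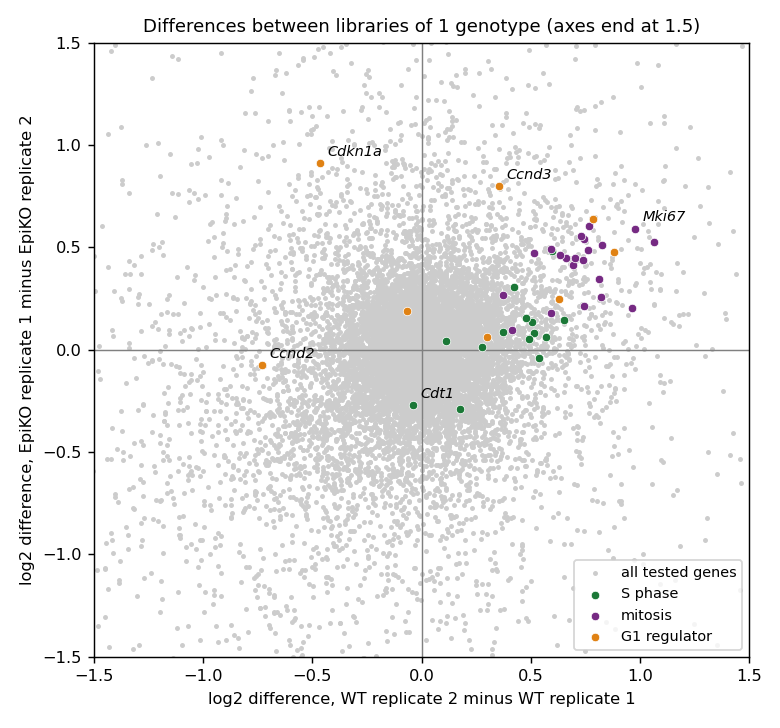
Log2 difference between the WT replicates (horizontal axis) against that between the EpiKO replicates (vertical axis) for all 12463 tested genes (grey) and the 43 members (coloured by class). All 21 mitosis members lie in the upper right part, above 0 on both axes, and Ccnd2, Cdt1 and Cdkn1a lie outside it.

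Groups did not overlap for 6 of 43 members, against 47.1% of all tested genes. Lower in EpiKO were Cdt1, Mcm6, Tk1, Pcna and Stmn1, where 23.8% of all tested genes were lower without overlap, and higher was Ccnd2, against 23.3%. Both EpiKO libraries lay between the WT libraries for 19 members, against 11.4% of all tested genes. The 95% interval of the log2 fold change lay within -1 and 1 for 35 of 43 members. Its median width to either side was 0.75 for mitosis, 0.48 for S phase and 0.71 for G1 regulators, against 0.43 over all tested genes. These widths are class medians, and a member's own width can be narrower. Stmn1, at -0.44, lay within the median width for mitosis, yet its interval of -0.86 to -0.023 excluded 0 before adjustment. The widths are not a limit of detection, since larger differences also went uncalled by limma. Examples were Cdt1 at -0.89 and Ccnd2 at 1.09.

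The direction of the class medians depended on which libraries were in the fit, in WT and in EpiKO. Without WT replicate 1 the median log2 fold change was -0.29 for S phase and -0.49 for mitosis members, and 14 of 14 and 21 of 21 were below 0. Without WT replicate 2 the medians were 0.17 and 0.28, and 10 of 14 and 19 of 21 were above 0. Leaving out EpiKO replicate 1 gave -0.14 and -0.34, and leaving out EpiKO replicate 2 gave 0.029 and 0.11. No member was called in any of these 4 fits, in which limma called between 0 and 4 genes of all tested.

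**Figure D5:**
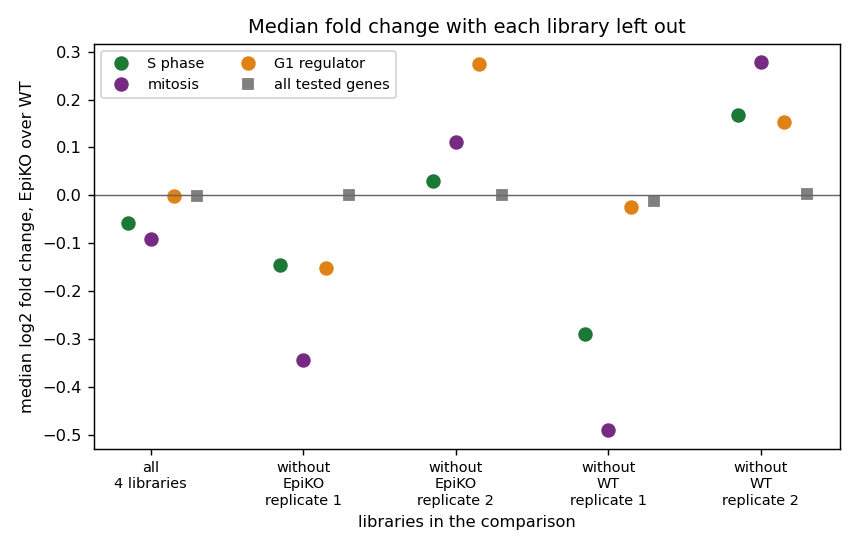
Median log2 fold change, EpiKO over WT (vertical axis), of the S phase, mitosis and G1 members and of all tested genes, with all 4 libraries and with each library left out (horizontal axis). The mitosis median is at -0.49 without WT replicate 1 and 0.28 without WT replicate 2, while that of all tested genes stays near 0.

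G1 regulators did not share 1 pattern. None of the 8 was called, 4 log2 fold changes were above 0 and 4 below, and the median was -0.0018, against 0.024 by edgeR, 0.026 by DESeq2 and 0.012 after quantile normalisation. Of 35 other G1 and checkpoint regulators, all tested, none was called by limma, with 14 above 0 and 21 below and a median of -0.018. Wee1, the kinase that restrains Cdk1, came closest, at 282 and 274 in EpiKO and 511 and 507 in WT, without overlap and with both pairs of replicates nearly equal. Its log2 fold change was -0.87 (SE 0.122), at an adjusted p of 0.0560 by limma, 0.0592 by edgeR and 0.00123 by DESeq2. Cdk6, a partner of D-type cyclins, was at -0.53 on the log2 scale (limma adjusted p = 0.207), and the inhibitor gene Cdkn1c, low in every library, at -1.13 (limma adjusted p = 0.217).

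The D-type cyclins, which start G1 progression, differed from each other in their values. Ccnd2 was at 1310 and 1381 in EpiKO and 813 and 489 in WT, without overlap, so that the mean EpiKO value was 2.07 times the mean WT value. Its log2 fold change was 1.09 (SE 0.254, 95% interval 0.44 to 1.75), at an adjusted p of 0.142 by limma, 0.142 by edgeR and 0.00550 by DESeq2. With any 1 library left out it stayed between 0.73 and 1.46. Ccnd1 was at 4951 and 4163 in EpiKO and 4219 and 6527 in WT, and Ccnd3 at 1831 and 1051 in EpiKO and 994 and 1270 in WT. In both of these the groups overlapped, with log2 fold changes of -0.21 (SE 0.238; limma adjusted p = 0.758) and 0.30 (SE 0.295; limma adjusted p = 0.709). Each of the 3 genes shares exon sequence with an annotated gene on the other strand. Ccnd2 lies at chr6:127125162-127152193 of mm10 on the minus strand.

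Per kilobase of annotated exon, Ccnd1 was the most abundant D-type cyclin in every library. Its level was 1051 and 884 in EpiKO and 896 and 1386 in WT. Ccnd3 and Ccnd2 overlapped in EpiKO, at 209 and 120 for Ccnd3 and 139 and 147 for Ccnd2. In WT they did not, at 113 and 145 for Ccnd3 and 86.4 and 51.99 for Ccnd2. The exon length is the union over all transcripts of a gene in GENCODE M21, so a gene used mainly in a short form is placed too low.

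E-type cyclins, which act at the start of S phase, had lower normalised read counts than the D-type cyclins and spread widely. Per kilobase of annotated exon they were not below Ccnd2 in every library. On that scale Ccne1 was at 118 and 84.5 in EpiKO and 59.7 and 110 in WT. Ccne2 was at 78.5 and 50.3 in EpiKO and 54.7 and 94.3 in WT, against 86.4 and 51.99 for Ccnd2 in WT. The values that follow are normalised read counts. Ccne1 was at 313 and 225 in EpiKO and 159 and 293 in WT, and Ccne2 at 275 and 176 in EpiKO and 191 and 330 in WT. The groups overlapped in both. E2f1, an activating E2F factor, was at 906 and 869 in EpiKO and 905 and 1112 in WT, and the log2 fold change was -0.18 (SE 0.137; limma adjusted p = 0.629).

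The inhibitors of the G1 kinases overlapped between the genotypes. Cdkn1a, which encodes p21, was at 8991 and 4776 in EpiKO and 8039 and 5825 in WT, and both WT values lay between the EpiKO values. Its EpiKO replicates differed by 1.88 times, the widest gap within EpiKO among the 43 members. The log2 fold change was -0.062 (SE 0.342, 95% interval -0.95 to 0.82). Cdkn1b, which encodes p27, was at 1533 and 1345 in EpiKO and 1412 and 1346 in WT, with a log2 fold change of 0.059 (SE 0.116, 95% interval -0.24 to 0.35).

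Cdkn1a is a target of p53, and the other p53 targets had log2 fold changes on both sides of 0. Of 20 in a list, 19 were tested, and none was called by limma or edgeR. DESeq2 called 6 of the 19, and 6.85% of all tested genes (3.73% higher, 3.12% lower). These 6 were Plk3, Phlda3 and Gadd45a as higher and Bbc3, Gadd45b and Pmaip1 as lower in EpiKO. On the log2 scale 12 were above 0 and 7 below, with a median of 0.078. Plk3, a stress kinase, was at 3675 and 3576 in EpiKO and 2170 and 1861 in WT (log2 fold change 0.85, adjusted p = 0.0567 by limma, 2.72e-05 by DESeq2). Phlda3, an inhibitor of Akt, was at 249 and 273 in EpiKO and 119 and 112 in WT (log2 fold change 1.17, adjusted p = 0.0602 by limma, 0.000976 by DESeq2). Bbc3, which encodes the death protein Puma, was at 220 and 238 in EpiKO and 490 and 393 in WT (log2 fold change -0.94, adjusted p = 0.0824 by limma, 0.00483 by DESeq2). The groups did not overlap in these 3 genes. Over the list that held for 12 of the 19, against 47.1% of all tested genes.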

How the data were processed

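Per the submitters' processing notes, the study used bcl2fastq 2.17, STAR 2.5.2b, DESeq2 and featureCounts 1.5.0-p3, and build mm10. Annotation and strand setting: not given in the sources used here. Each deposited signal value is a gene's read count after division, by the authors, by the library's size factor. The values themselves show it: within 1e-06 reads, 100% of them are whole multiples of a library's smallest non-zero value, taken as 1 read. Counting intervals are not given, since no member is near 0.

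Values were tested as log2(value + 1) by limma 3.58.1 in R 4.3.3 (trend, robust), EpiKO minus WT, two-sided, with Benjamini-Hochberg adjustment over 12463 genes. Standard errors and 95% intervals are limma's, the intervals unadjusted. As alternatives, edgeR 4.0.16 (quasi-likelihood, TMM) and DESeq2 1.42.0 (Wald) took the whole reads, beside pseudocounts, filters, scalings, a fit without trend, a threshold of 0.1 and leaving out each library. With 1 library left out, the lone library is assumed to vary like the other group. An exact permutation test of 2 against 2 cannot go below p = 0.333. Scripts were tested on simulated data.

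The members and lists were chosen with earlier results of these data known. Full statistics are given for members with an unadjusted p under 0.05 and the 4 smallest p-values of each class, and the 3 smallest of each other list, of which 1 is not reported here. Of 302 list entries, 5 were matched by a RefSeq synonym and 2 were not found. In GENCODE M21, 14 of the 43 members overlap exons of an opposite-strand gene, and 3 (Mcm7, Top2a and Stmn1) those of a same-strand gene. A named pseudogene exists for 5 members. Reads of all these could be split. Promoters are RefSeq's; Gins2, Ccnd1, Aurkb, Ccnd2, Stmn1, Ccne2, Ccna2, Tpx2 and Mcm4 were not matched.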

Additional observations from a re-analysis of the deposited data

How the results depend on the processing

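No member was called under either other pseudocount, filter or scaling, without trend, by edgeR, or with any 1 library left out. DESeq2 called 1 S phase member (Cdt1, log2 fold change -0.88) and 1 G1 regulator (Ccnd2, 1.05), and a threshold of 0.1 called 1 S phase member (Cdt1, -0.89). Over all genes, 52 were called higher and 66 lower; without trend it was 14 and 24, by DESeq2 465 and 389, and at a threshold of 0.1 226 and 202, and the cause was not tested. No filter gave 77 higher and 81 lower. With 1 library left out the calls ranged between 0 and 2 higher and between 0 and 4 lower, with fewer samples in the fit. Leaving out 1 library moved the median log2 fold change between -0.29 and 0.17 for S phase, -0.49 and 0.28 for mitosis, and -0.15 and 0.27 for G1 regulators. The sign changed for 9 of 43 members without WT replicate 1, 24 without WT replicate 2, 6 without EpiKO replicate 1 and 21 without EpiKO replicate 2, and for at most 1 in any other fit. No paired analysis was run, because the labels pair no EpiKO library with a WT library. The labels carry no replicate numbers, and those used here follow the order of the libraries within each genotype. Every member had at least 159 normalised reads in each library, and the parts of counting error and of spread between libraries in the intervals were not separated.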
